A study of Mus musculus with 9 samples.

Results

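The replication-dependent histone genes of the mouse were followed across the choroid (CH), the retinal pigment epithelium (RPE) and the photoreceptors (PR) on dual-colour Agilent arrays. Members were chosen by name: every non-control probe whose gene symbol in the scanner files starts with Hist1h, Hist2h, Hist3h or Hist4h. This gave 51 probes of 47 genes, out of 39429 probes of 31829 genes on the array. Of the 47 genes, 34 lie in the Hist1 cluster on chromosome 13, 9 in Hist2 on chromosome 3, 3 in Hist3 on chromosome 11 and 1 in Hist4 on chromosome 6. By protein, 6 genes encode H1, 14 H2A, 11 H2B, 8 H3 and 8 H4. The family itself was selected on tissue differences already seen in these same 9 arrays, so its counts and medians describe the arrays and are no test of the family.

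The tissues came from healthy, untreated female C57BL/6 mice, of the J strain in the study's methods. The age was 6 months in the sample labels, within 2 weeks, and is given as lower in the study's methods. There were 3 arrays for each tissue, and for each sample the tissue of a whole eye was cut out by laser, after the RPE had been removed in the case of the CH. The labels do not say whether equally numbered samples shared an animal, so p-values measure the spread between these samples. Amplified RNA carried Cy5 and was hybridised against a Cy3 reference made from mouse RPE and choroid, with the same dye orientation on all 9 arrays. The arrays lay on 3 slides, each with its own scan. Replicate 2 of each tissue shared a slide, CH and RPE replicates 1 and 3 shared another, and PR replicates 1 and 3 were alone on the last. All values below are log2(Cy5/Cy3) after normalization within each array, so 0 is close to the typical probe's ratio on that array and is not an equal amount in tissue and reference. In dissected tissue, more cells of a type and more RNA per cell cannot be told apart.

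Replication-dependent histones package newly made DNA, and their genes sit in clusters and are switched on together as cells copy their genome. Their messengers normally carry no poly(A) tail and end in a short stem-loop that is bound by SLBP, the stem-loop binding protein. Choroid cells, RPE cells and photoreceptors of an adult eye divide rarely or not at all, and histone messengers with poly(A) tails are known from cells that have left the cell cycle. Amplification of RNA that starts from a poly(A) tail favours such tailed messengers.

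The stem-loop itself could be read in some of the 60-base probes. A search for GG, any 4 bases, a loop of 4 bases and the reverse complement of the first 6 found it whole in 5 of the 51 histone probes (9.80%) and in 31 of all 39429 probes (0.0786%). A further 2 histone probes held 10 or more bases of the most frequent form at an end. The 7 are shown over 30 bases each, 5′ to 3′, with the stem-loop or its part in capitals, because they show where each probe sits relative to the normal end of the messenger.
Hist2h2aa1: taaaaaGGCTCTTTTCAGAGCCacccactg
Hist1h2ae: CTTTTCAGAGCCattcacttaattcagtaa
Hist1h3a: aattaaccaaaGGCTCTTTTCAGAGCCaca
Hist1h3g: cactttaaaGGCTCTTCTTAGAGCCaccca
Hist1h3i: ataacaaaaGGCTCTTTTCAGAGCCccctc
Hist2h2bb: acccaaaaGGCTCTTTTCAGAGCCacttta
Hist1h2ab: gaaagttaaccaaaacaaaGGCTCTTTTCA
In 4 of these probes (Hist1h3a, Hist1h3g, Hist1h3i and Hist2h2bb) only 3 to 6 bases followed the stem-loop. These 4 were well above background in Cy5 on 0, 4, 3 and 1 of the 9 arrays in that order, and their RPE minus CH differences lay between -0.19 and 0.29. The Hist2h2aa1 probe had 38 bases after the stem-loop and was well above background on 9 arrays. The Hist1h2ae probe began inside the stem-loop, had 48 bases after it and was well above background on 8 arrays. Both of these downstream probes were called higher in RPE than in PR, as described below. Hist1h2ab, whose probe ended within the stem-loop, was well above background on 1 array.

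The H2A genes encode nearly the same protein, and their probes over the end of the coding sequence were nearly the same letters. Capitals mark the bases that differ from the Hist1h2ah probe when both are aligned without gaps, or that lie past its end.
Hist1h2ah: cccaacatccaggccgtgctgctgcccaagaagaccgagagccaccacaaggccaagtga
Hist1h2ak: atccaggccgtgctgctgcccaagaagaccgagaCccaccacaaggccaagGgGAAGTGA
Hist1h2af: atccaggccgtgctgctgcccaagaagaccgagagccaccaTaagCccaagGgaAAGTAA
Hist1h2an: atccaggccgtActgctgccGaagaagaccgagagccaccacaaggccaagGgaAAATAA
Hist2h2aa2: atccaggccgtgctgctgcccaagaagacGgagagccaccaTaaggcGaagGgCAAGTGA
Linking histone probes that shared 45 or more bases in an ungapped alignment gave 3 groups that held 12 of the 51 probes. The first joined Hist1h2af, Hist1h2ag, Hist1h2ah, Hist1h2ak, Hist1h2an and Hist2h2aa2. The second joined Hist1h4c, Hist1h4d, Hist1h4j and Hist1h4k, and the third joined Hist1h3c and Hist1h3f. Such probes can bind each other's transcripts, so the values within a group are uncertain as to the gene. Outside the family, the replacement variant H2afj matched the probe of Hist2h2ac at 45 bases and that of Hist1h2ah at 44. The file places the Hist2h2ac probe at chr3:96049834-96049896 on mm9, over the site of the Hist2h2aa2 probe, which leaves its gene uncertain too.

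The H4 probes are shown because 7 of the 8 H4 genes were called against the PR, as described below. Capitals mark differences from the Hist1h4k probe in the same way, and the Hist1h4i probe, which covers the start codon, is printed with no comparison.
Hist1h4k: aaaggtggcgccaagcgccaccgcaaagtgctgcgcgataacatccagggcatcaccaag
Hist1h4j: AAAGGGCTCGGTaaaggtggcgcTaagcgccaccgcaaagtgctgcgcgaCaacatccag
Hist1h4d: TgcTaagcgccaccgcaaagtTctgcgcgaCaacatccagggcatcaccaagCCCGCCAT
Hist1h4c: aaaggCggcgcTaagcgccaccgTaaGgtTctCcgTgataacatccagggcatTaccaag
Hist1h4i: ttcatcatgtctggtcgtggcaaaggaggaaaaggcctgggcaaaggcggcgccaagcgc

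Of the 51 histone probes, 35 were well above background in Cy5 on all 9 arrays, 11 on 5 arrays or fewer and 1 on none. No histone spot was saturated or carried an outlier mark. Over the whole array, Cy5 was well above background for 63.1% to 71.9% of probes on 8 arrays and for 91.8% on RPE replicate 2, which stands apart in this respect. The RPE markers, a list of 12 genes, had median log2 ratios of 1.76 to 2.19 on the RPE arrays and -3.02 to -2.92 on the PR arrays. On the CH arrays their medians were 0.33, 0.11 and 1.03, so CH replicate 3 was highest. The 16 rod markers had medians of 3.51 to 3.81 on the PR arrays and -0.99 to 0.66 on the CH and RPE arrays, and all 16 were well above background on every array. The part of adjacent tissue in the results below was not tested.

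Across the family the RPE had the highest values. The median log2 ratio over the 47 genes was 0.58, 0.69 and 0.47 on the RPE arrays, against -0.03, -0.01 and 0.13 on the CH arrays and -0.10, 0.11 and 0.05 on the PR arrays. All 3 RPE arrays lay above all CH and PR arrays, while CH and PR overlapped. Over all genes on the array, the same medians lay between 0.01 and 0.04. The median difference between RPE and CH was 0.71 on the log2 scale for the histone genes and 0.03 for all genes, and 45 of the 47 gene medians were above 0. Without RPE replicate 2 the median difference was 0.63. Within the slide that held CH and RPE replicates 1 and 3 it was 0.56, and within the slide that held replicate 2 of each tissue it was 0.81. The 2 exceptions, Hist1h2ab at -0.06 and Hist2h2bb at -0.19, were well above background on 1 array each.

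**Figure D1:**
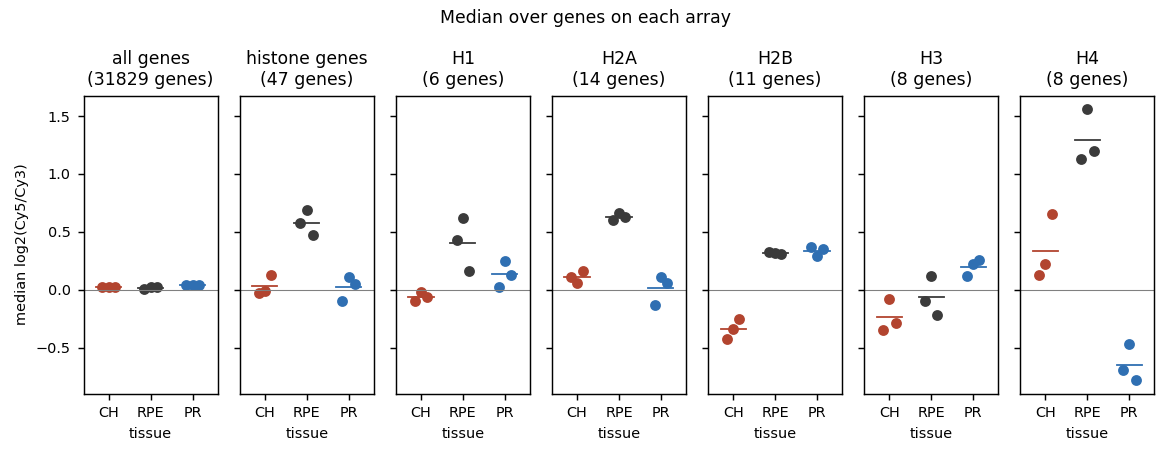
Median log2(Cy5/Cy3) on each array (points) over all genes, over the 47 histone genes and over the genes of each histone type, with the mean of the 3 arrays of a tissue as a line. The RPE arrays were highest over all histone genes, CH was lowest for H2B, and H4 ran RPE above CH above PR.

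The differences from CH were shared by many genes but were small. A gene was called where a probe passed a fold change (FC) of 2.5, which is 1.32 on the log2 scale, and a Benjamini-Hochberg (B-H) adjusted p of 0.01 in limma, over all probes. By this rule 1 of the 47 genes, Hist1h4i, was called higher in RPE than in CH (0.217% of all genes were) and 0 were called lower (1.81% of all genes). The count higher was 0 without CH replicate 2 or RPE replicate 2, and 3 without CH replicate 3 or RPE replicate 3. Hist1h4i was also the 1 gene called higher in the RPE than in both neighbours (0.207% of all genes). With the adjusted p alone, 20 of 47 genes were higher in RPE than in CH, against 5.78% of all genes, and 0 were lower, against 7.94%. At an unadjusted p below 0.05 in limma, 33 were higher (19.3% of all genes) and 0 lower (17.7%). The values of 33 genes did not overlap between the tissues with the RPE higher (22.6% of all genes), and those of 0 genes did with the RPE lower (20.3%). As the family was selected on these arrays, nothing is read from these shares.

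Against the PR the family divided. The median difference was 0.31 for RPE minus PR and -0.06 for CH minus PR, beside -0.01 and -0.05 for all genes on the array. As PR replicates 1 and 3 had a slide to themselves, tissue and slide cannot be told apart for them. With slide as a block, comparisons with the PR therefore rest on PR replicate 2. Within the slide with replicate 2 of each tissue the median differences were 0.25 for RPE minus PR and -0.12 for CH minus PR. In the RPE, 11 genes were called higher than in the PR (11.2% of all genes) and 2 were called lower (5.71%). In the CH, 6 genes were called higher than in the PR (13.2% of all genes) and 7 were called lower (6.92%). Without CH replicate 3, 3 were called higher in the CH than in the PR, and without PR replicate 3, 4 were called lower in the RPE than in the PR. The split changed with the scaling: with median centring the counts were 10 and 4 for RPE against PR and 8 and 8 for CH against PR, and with the Feature Extraction log ratio they were 10 and 5, and 3 and 9. On the Cy5 signal without the reference, and in the series table, they were 8 and 3 for RPE against PR and 3 and 6 for CH against PR. Values did not overlap for 20 genes with RPE above PR (30.4% of all genes) and for 8 with RPE below (32.0%). They did not overlap for 13 genes with CH above PR (30.1%) and for 16 with CH below (36.7%). By tissue means, 23 of the 51 probes ran RPE above CH above PR, 16 ran PR above RPE above CH, and 10 ran RPE above PR above CH.

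**Figure D2:**
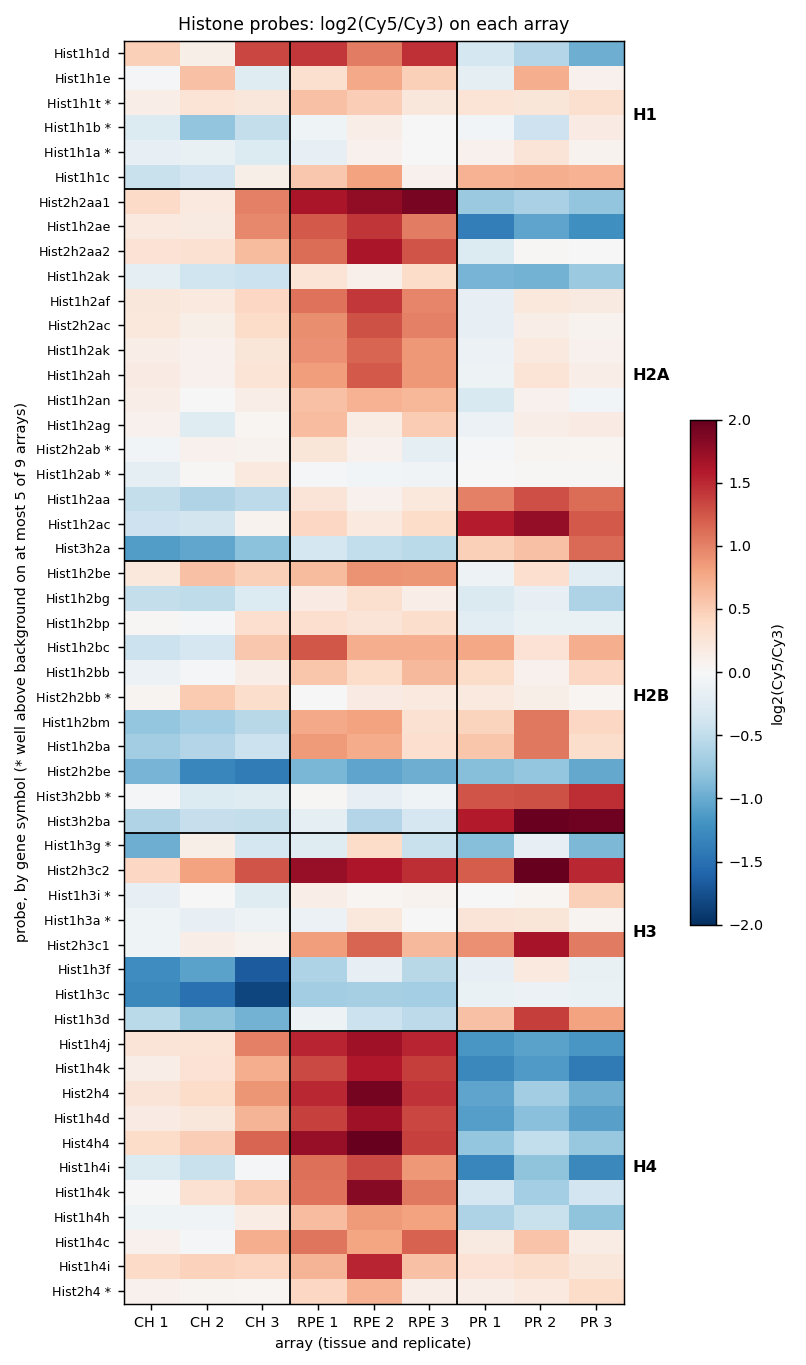
Log2(Cy5/Cy3) of the 51 histone probes (rows, by histone type and then by RPE minus PR) on the 9 arrays (columns), from blue (-2) to red (2), with a star where a probe was well above background on at most 5 arrays. The H4 block was red in RPE and mostly blue in PR, while Hist1h2aa, Hist1h2ac, Hist1h3d and the 3 Hist3 genes were red in PR.

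H4, the most conserved of the core histones, had the largest median of any histone type in both comparisons with the RPE. In the RPE, 7 of 8 H4 genes were called higher than in the PR (11.2% of all genes) and 1 of 8 higher than in the CH (0.217%). By the adjusted p of 0.01 alone, 7 of 8 were higher than in the CH (5.78% of all genes). The linked probes of Hist1h4c, Hist1h4d, Hist1h4j and Hist1h4k share most of their bases, so their values may not be separate. The median difference over the 8 genes was 0.98 for RPE minus CH and 1.84 for RPE minus PR. It kept its direction under each scaling tried, from 0.78 to 1.15 and from 1.61 to 2.12. The 8 probes called against the PR read between 0.61 and 2.03 on the RPE arrays, -0.45 to 1.16 on the CH arrays and -1.42 to -0.33 on the PR arrays. CH replicate 3 was the highest CH array for all 8 of these probes, and it was also the CH array with the highest RPE marker median. RPE replicate 2, which stands apart in its share of probes above background, was the highest RPE array for all 8.

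Hist1h4i (H4c9 in current naming) was read by a probe at chr13:22133139-22133198 on mm9, minus strand. It gave -0.27, -0.45 and -0.03 on the CH arrays, 1.10, 1.32 and 0.86 on the RPE arrays and -1.31, -0.81 and -1.29 on the PR arrays. The 3 tissues did not overlap, with the RPE highest and the PR lowest. The RPE was 2.54-fold higher than the CH, a log2 difference of 1.34 ± 0.17 (SE, n = 3 arrays per tissue) with an adjusted p of 0.000832, which is just above the FC limit of 2.5. The call was lost without RPE replicate 2, where the difference was 1.23, and without CH replicate 2, where it was 1.24. Against the PR the log2 difference was 2.23 ± 0.17 with an adjusted p of 3.18e-06. A second probe named for Hist1h4i, placed 460 bases farther in the direction of transcription, gave 0.51 ± 0.21 against the CH and 0.64 ± 0.21 against the PR. It was not called, and whether it reads the Hist1h4i transcript or others was not tested. Its RPE values were 0.68, 1.53 and 0.59, with replicate 2 far above the others.

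Hist1h4j read 0.25, 0.28 and 1.00 in CH, 1.53, 1.70 and 1.53 in RPE and -1.17, -1.07 and -1.16 in PR. Its RPE minus PR difference of 2.72 ± 0.18 (6.60-fold, adjusted p 1.03e-06) was the largest among the histone probes. The Hist1h4k probe printed above read 0.13, 0.29 and 0.73 in CH, 1.32, 1.60 and 1.38 in RPE and -1.29, -1.13 and -1.42 in PR. The RPE arrays lay above the CH arrays and these above the PR arrays for both genes, whose probes share 46 bases. Hist1h4d differed by 2.47 ± 0.16 and a Hist2h4 probe by 2.52 ± 0.19 between RPE and PR. That Hist2h4 probe matched no other probe at more than 31 bases, and it read 0.25, 0.37 and 0.89 in CH, 1.51, 1.92 and 1.45 in RPE and -1.05, -0.69 and -0.97 in PR. Hist4h4, the single gene of its cluster, read 0.37, 0.49 and 1.16 in CH, 1.74, 2.03 and 1.37 in RPE and -0.77, -0.49 and -0.76 in PR. Its RPE minus PR difference was 2.39 ± 0.22 with an adjusted p of 1.15e-05, and its best match to another probe was 32 bases.

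The choroid was also above the PR for 5 H4 genes by the call rule, which 13.2% of all genes passed. These were Hist1h4d, Hist1h4j, Hist1h4k, Hist2h4 and Hist4h4, with log2 differences from 1.35 to 1.66. The calls of Hist1h4d, Hist2h4 and Hist4h4 were lost without CH replicate 3, at 1.20, 1.21 and 1.10. Those of Hist1h4d and Hist4h4 were also lost without PR replicate 1, at 1.32 and 1.30, and that of Hist4h4 without PR replicate 3, at 1.31. With slide as a block these 3 genes were at 1.26, 1.27 and 1.23 and with the Feature Extraction log ratio at 1.15, 1.20 and 1.18, again with no call. They were not called on Cy5 without the reference or in the series table either. Hist1h4h was called against the PR in the RPE alone, at 1.38 ± 0.12, and the call was lost without PR replicate 3, at 1.28. It was also lost with slide as a block, at 1.22, with median centring, at 1.29, with the Feature Extraction log ratio, at 1.14, and at 1.30 both on Cy5 without the reference and in the series table. Hist1h4c was the H4 gene with no call, at 0.75 ± 0.20 for RPE minus CH and 0.71 ± 0.20 for RPE minus PR. The other Hist2h4 probe, 227 bases away, was well above background on 1 array and gave 0.35 and 0.18 for these comparisons.

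**Figure D3:**
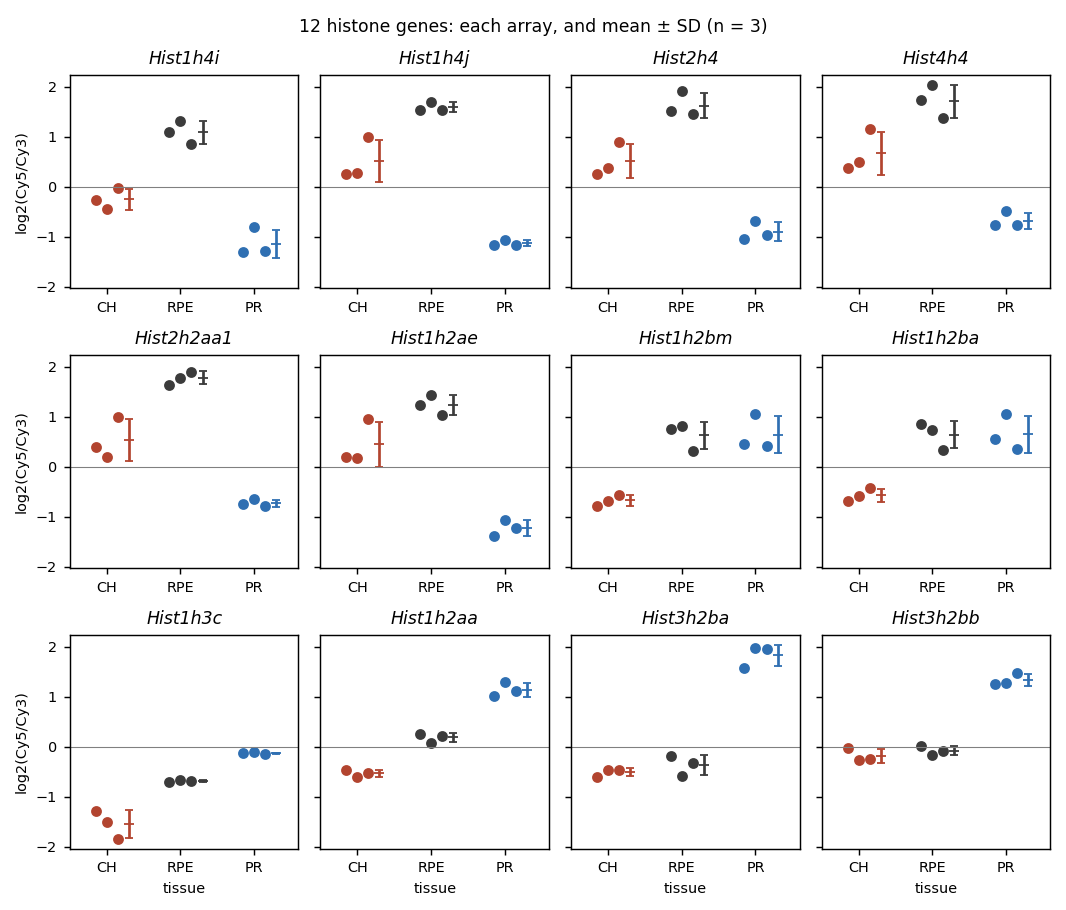
Log2(Cy5/Cy3) of 12 histone genes on each array (points) with the mean ± SD of the 3 arrays (bars). The top row and the first 2 panels of the middle row ran RPE above CH above PR, Hist1h2bm and Hist1h2ba were lowest in CH, and the Hist3 genes stood out in PR.

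H2A genes went in opposite directions in the PR. Of the 14 H2A genes, 3 were called higher in RPE than in PR (Hist1h2ae, Hist2h2aa1 and Hist2h2aa2), where 11.2% of all genes were. In the CH, 1 was called higher and 3 were called lower than in the PR (13.2% and 6.92% of all genes). Between RPE and CH, 0 were called. At an unadjusted p below 0.05 in limma, 12 were higher and 0 lower in RPE than in CH, against 19.3% and 17.7% of all genes. The median difference was 0.71 for RPE minus CH and 0.81 for RPE minus PR. Hist2h2aa1 (H2ac18), read downstream of its stem-loop at chr3:96049949-96050008, gave 0.39, 0.19 and 1.00 in CH, 1.64, 1.78 and 1.90 in RPE and -0.74, -0.65 and -0.79 in PR. The tissues did not overlap, and RPE minus PR was 2.51 ± 0.18 with an adjusted p of 1.90e-06. RPE minus CH was 1.25 ± 0.18, just under the FC limit, and passed it without CH replicate 3, at 1.48. The same difference was 0.94 with median centring (adjusted p 0.0523), 0.72 on Cy5 without the reference, 0.88 in the series table and 1.08 within the slide of replicate 2 of each tissue. The Hist2h2aa2 probe, which the files place 112 bases upstream over the end of the coding sequence, gave 0.92 ± 0.16 against the CH and 1.42 ± 0.16 against the PR. Its call against the PR was lost without RPE replicate 2, at 1.27, on Cy5 without the reference, at 1.11, and in the series table, at 1.10. The Hist2h2aa2 probe is placed on the plus strand, like that of Hist2h2aa1, while the RefSeq promoter of Hist2h2aa2 is on the minus strand. Its gene is thus uncertain, and the calls of Hist2h2aa1 and Hist2h2aa2 may not be separate.

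Hist1h2ae, also read downstream of the stem-loop, gave 0.20, 0.18 and 0.96 in CH, 1.23, 1.43 and 1.03 in RPE and -1.38, -1.06 and -1.22 in PR. It was called higher than in the PR in both RPE (2.45 ± 0.21) and CH (1.67 ± 0.21), while RPE minus CH was 0.78 ± 0.21 with an adjusted p of 0.0234. The probes over the H2A coding end, 7 with that of Hist2h2ac, moved within a narrow range. They read between 0.15 and 1.63 in RPE, between -0.24 and 0.63 in CH and between -0.31 and 0.27 in PR. Their RPE minus CH differences lay between 0.46 and 0.92 and their CH minus PR differences between -0.11 and 0.50, with 0 of 7 called in either. As these probes share most of their letters, the 7 are not independent measurements.

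In the other direction, Hist1h2aa, known as a testis H2A, gave -0.47, -0.60 and -0.53 in CH, 0.26, 0.08 and 0.21 in RPE and 1.01, 1.29 and 1.12 in PR. The 3 tissues did not overlap, with the PR highest. CH minus PR was -1.67 ± 0.10 with an adjusted p of 4.19e-07 and was called, while RPE minus PR was -0.96 ± 0.10 and RPE minus CH was 0.72 ± 0.10. Hist1h2ac read -0.42, -0.37 and 0.07 in CH, 0.41, 0.20 and 0.37 in RPE and 1.57, 1.75 and 1.23 in PR, so CH minus PR was -1.75 ± 0.17 and was called. No other array probe matched either of these at more than 35 bases. Hist1h2ab and Hist2h2ab were each well above background on 1 array and had differences between -0.06 and 0.02.

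By array medians the H2B genes were lowest in the choroid, and 8 of 11 probes had their lowest tissue mean there. Over the 11 genes the array medians were -0.43, -0.34 and -0.25 in CH, 0.33, 0.32 and 0.31 in RPE and 0.37, 0.29 and 0.35 in PR. The CH arrays lay below all others, and RPE and PR overlapped. Between RPE and CH, 0 of the 11 were called, although 3 (Hist1h2ba, Hist1h2bg and Hist1h2bm) passed the adjusted p and 6 an unadjusted p of 0.05 with the RPE higher (19.3% of all genes), and the median difference was 0.39. Hist1h2bm (H2bc14) read -0.78, -0.68 and -0.56 in CH, 0.76, 0.81 and 0.31 in RPE and 0.45, 1.06 and 0.41 in PR. Its RPE minus CH difference of 1.30 ± 0.19, 2.46-fold with an adjusted p of 0.00146, was the nearest below the FC limit. It passed the limit without CH replicate 3, at 1.35, and without RPE replicate 3, at 1.46. On Cy5 without the reference it was 1.03 (adjusted p 0.188) and in the series table it was 0.99 (adjusted p 0.208). Hist1h2ba, known as a testis H2B, read -0.69, -0.58 and -0.43 in CH, 0.85, 0.74 and 0.34 in RPE and 0.56, 1.06 and 0.35 in PR. Its RPE minus CH difference was 1.21 ± 0.19, and it passed the limit without RPE replicate 3, at 1.36, but was 0.97 on Cy5 without the reference (adjusted p 0.0862) and 0.95 in the series table (adjusted p 0.0881). For both genes RPE minus PR was -0.01 ± 0.19. Their probes matched no other array probe at more than 32 bases. Hist1h2bc gave -0.43, -0.34 and 0.54 in CH against 1.24, 0.73 and 0.73 in RPE and 0.78, 0.29 and 0.72 in PR, and Hist2h2be stayed between -1.40 and -0.77 on all 9 arrays.

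Most H3 probes were lowest in the choroid: 7 of 8 had their lowest tissue mean there, and 6 of these ran PR above RPE above CH. Of 8 H3 genes, 2 were called lower in the CH than in the PR (Hist1h3c and Hist1h3d), where 6.92% of all genes were, and 0 were called in the other comparisons. At an unadjusted p below 0.05 in limma, 4 were higher and 0 lower in RPE than in CH (19.3% and 17.7% of all genes). By the same rule, 0 were higher and 2 lower in RPE than in PR (28.5% and 30.0%). In the CH, 0 were higher than in the PR (28.7%) and 7 lower, the latter with no all-gene share given. Hist1h3c (H3c3) gave -1.29, -1.50 and -1.84 in CH, -0.70, -0.67 and -0.68 in RPE and -0.13, -0.11 and -0.14 in PR. The 3 tissues did not overlap, and CH minus PR was -1.42 ± 0.13 with an adjusted p of 7.50e-06. The call was lost without CH replicate 3, at -1.27. RPE minus CH was 0.86 ± 0.13 and RPE minus PR -0.55 ± 0.13. Hist1h3f, whose probe shares 45 bases with that of Hist1h3c, gave -1.24, -1.07 and -1.67 in CH, -0.61, -0.17 and -0.56 in RPE and -0.17, 0.20 and -0.15 in PR. Hist1h3d read -0.54, -0.80 and -0.95 in CH, -0.10, -0.43 and -0.53 in RPE and 0.59, 1.39 and 0.80 in PR. CH minus PR was -1.69 ± 0.21 for it, with an adjusted p of 6.49e-05. It lost its call on Cy5 without the reference, at -1.42 (adjusted p 0.0101), and in the series table, at -1.49 (adjusted p 0.0227). Hist2h3c1 and Hist2h3c2 had RPE minus CH differences of 0.85 ± 0.19 and 0.78 ± 0.24 and overlapped between RPE and PR.

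H1, the linker histone that binds between nucleosomes, had 1 call among 6 genes, higher in RPE than in PR (11.2% of all genes). Hist1h1d gave 0.48, 0.12 and 1.34 in CH, 1.41, 1.02 and 1.46 in RPE and -0.35, -0.59 and -0.98 in PR. CH and RPE overlapped, both lay above the PR, and RPE minus PR was 1.94 ± 0.29 with an adjusted p of 0.000288. The call was lost with slide as a block, at 1.49 (adjusted p 0.0162), on Cy5 without the reference, at 1.72 (adjusted p 0.0181), and in the series table, at 2.00 (adjusted p 0.0164). Hist1h1c gave -0.45, -0.38 and 0.11 in CH, 0.54, 0.80 and 0.09 in RPE and 0.69, 0.72 and 0.69 in PR, and its CH minus PR difference of -0.94 ± 0.19 did not reach the FC limit. Hist1h1a, Hist1h1b and the testis gene Hist1h1t were not well above background on any CH array.

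**Figure D4:**
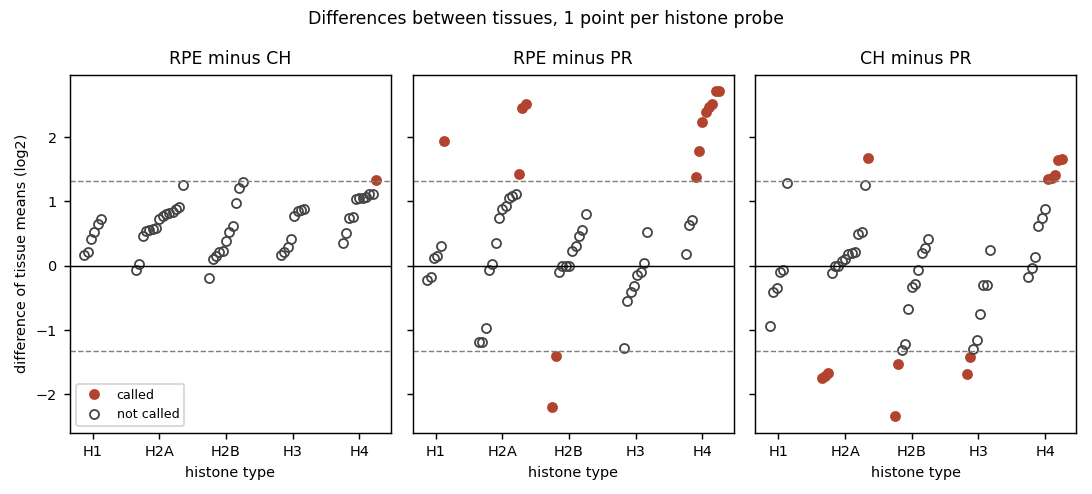
Log2 differences between tissue means for each histone probe (points) by histone type, filled where the probe was called, with dashed lines at the FC limit of 2.5. In RPE minus CH the points of every type lay mostly above 0 and 1 was called. H4 had 8 called probes above the upper line in RPE minus PR, and H2B and H3 had called probes only below the lower line in CH minus PR.

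By cluster, Hist3 differed from the others in being highest in the PR. Hist3h2ba, an H2B gene at chr11:58762964-58763023, gave -0.60, -0.46 and -0.47 in CH, -0.19, -0.58 and -0.33 in RPE and 1.58, 1.98 and 1.95 in PR. The PR arrays stood clear of the other two tissues, which overlapped. RPE minus PR was -2.20 ± 0.14 with an adjusted p of 6.62e-07, and CH minus PR was -2.34 ± 0.14 with an adjusted p of 3.32e-07, a 5.08-fold difference. The Hist3h2ba probe holds the poly(A) signal AATAAA, which 2 histone probes and 12.6% of all probes hold. Hist3h2bb gave -0.03, -0.27 and -0.25 in CH, 0.02, -0.16 and -0.09 in RPE and 1.26, 1.27 and 1.48 in PR. It was not well above background on any CH array and was so on 1 of the 3 RPE arrays, so the PR was at least 2.40-fold higher than the CH, with an adjusted p of 1.24e-06. Hist3h2a gave -1.12, -1.04 and -0.82 in CH, -0.35, -0.49 and -0.54 in RPE and 0.47, 0.59 and 1.13 in PR. It was called lower in the CH than in the PR, at -1.72 ± 0.17, but on the Cy5 signal without the reference the difference was -1.06 and in the series table -0.66, and neither was called. RPE minus CH for the 3 genes lay between 0.11 and 0.54, and its sign turned for at least 1 of them with median centring and in the series table, where the lowest values were -0.14 and -0.05.

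Within Hist1, a gap of 1488545 bases splits the probes on chromosome 13 into 11 and 23 genes. The median RPE minus CH difference was 0.71 for the first and 0.65 for the second, and the median RPE minus PR difference was 0.74 and 0.23. In Hist2 the 9 genes had medians of 0.78 and 0.04. The single Hist4 gene and the H4 genes of Hist1 and Hist2 ran the same way, with RPE minus PR at 2.39 for Hist4h4 and medians of 1.84 over the 6 Hist1 genes and 1.35 for Hist2h4. H2B genes did not: RPE minus PR had a median of 0.31 over 7 Hist1 genes and -0.05 over 2 Hist2 genes, and was -2.20 for Hist3h2ba.

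H2A and H2B genes often lie next to each other, and pairs on opposite strands can share a promoter. For 7 neighbouring pairs, each the other's nearest probe and no more than 20000 bases apart, the differences were set side by side. Hist1h2ae and Hist1h2bg, 1334 bases apart on opposite strands, gave RPE minus PR differences of 2.45 and 0.56. Hist1h2ac and Hist1h2bc gave -1.18 and 0.31 in the same comparison. Hist1h2aa and Hist1h2ba, 657 bases apart, gave -0.96 and -0.01 for RPE minus PR and 0.72 and 1.21 for RPE minus CH. Hist3h2a and Hist3h2bb, 1046 bases apart, gave RPE minus PR differences of -1.19 and -1.41, the latter with 1 of 3 RPE arrays well above background. The other 3 pairs gave 0.74 and 0.47 (Hist1h2an and Hist1h2bp), -0.06 and 0.23 (Hist1h2ab and Hist1h2bb) and 0.02 and -0.10 (Hist2h2ab and Hist2h2be). By the placement of their probes the last 2 of these pairs lie on the same strand. The Hist1h2ab and Hist2h2ab probes were each well above background on 1 array. The 2 probes of a pair sit at different places in their transcripts.

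The promoters were searched in RefSeq sequence (GRCm38.p6) over 250 bases before each start, on both strands. Of the 47 genes, 46 matched RefSeq by accession and 41 had a promoter. Some H2A and H2B promoters overlap: Hist1h2aa with Hist1h2ba, Hist1h2ae with Hist1h2bg, and Hist1h2an with Hist1h2bp. A motif in the shared bases counts for both genes, so the H2A and H2B counts are not separate. The H4 element GGTCCG was present in 6 of 7 H4 promoters, 1 of 6 H3 promoters and 0 of the others, against 6.80% of all other promoters. The octamer ATGCAAAT, known from H2B promoters, was present in 5 of 8 H2B and 7 of 14 H2A promoters and in 0 of 6 H1, 0 of 6 H3 and 0 of 7 H4 promoters, against 1.57% of all others. CCAAT was present in all 14 H2A, 8 H2B and 6 H1 promoters, in 4 of 6 H3 promoters and in 2 of 7 H4 promoters, against 34.4%. TATAAA was present in 4 of 6 H1, 7 of 14 H2A, 5 of 8 H2B, 2 of 6 H3 and 3 of 7 H4 promoters, against 12.9%. The promoter of Hist1h4i, the gene called against both neighbours, is shown with these motifs in capitals, at chr13:22041363-22041612 on the minus strand.
Hist1h4i: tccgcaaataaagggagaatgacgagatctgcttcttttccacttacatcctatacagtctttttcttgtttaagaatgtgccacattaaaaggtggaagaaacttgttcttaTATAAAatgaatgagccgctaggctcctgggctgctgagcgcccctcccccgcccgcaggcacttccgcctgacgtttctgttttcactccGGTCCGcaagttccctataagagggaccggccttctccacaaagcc
The promoter of Hist1h2bm, the H2B gene nearest the FC limit against the CH, is at chr13:21721794-21722043 on the plus strand.
Hist1h2bm: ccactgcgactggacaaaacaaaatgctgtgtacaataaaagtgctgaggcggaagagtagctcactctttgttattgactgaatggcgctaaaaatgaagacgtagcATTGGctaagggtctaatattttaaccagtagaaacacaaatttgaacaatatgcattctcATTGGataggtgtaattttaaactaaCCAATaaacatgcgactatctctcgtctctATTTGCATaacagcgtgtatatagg

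No measured gene that makes or finishes histone messengers was called in the direction of the H4 genes. The medians of the list were 0.16 for RPE minus CH and -0.34 for RPE minus PR. Mif4gd ran RPE above CH above PR without a call, at 0.68 for RPE minus CH and 1.03 for RPE minus PR by its brighter probe. Of 29 measured genes for histone transcription and 3′ processing, 0 were called between RPE and CH. None was called higher in RPE or CH than in PR (11.2% and 13.2% of all genes). Against the PR, 3 were called lower in the RPE and 5 lower in the CH (5.71% and 6.92% of all genes). At an unadjusted p below 0.05 in limma, 12 were higher and 3 lower in RPE than in CH (19.3% and 17.7% of all genes). By the same rule, 4 were higher and 15 lower in RPE than in PR (28.5% and 30.0%). In the CH, 4 were higher than in the PR (28.7%) and 19 lower, the latter with no all-gene share given. Slbp, which binds the stem-loop, had 2 probes with RPE minus CH of 0.62 and 0.48 and CH minus PR of -0.94 and -0.84, none of them called. Npat, the activator of histone transcription, was well above background on 1 array. Lsm11 and Zfp473, both of the U7 snRNP machinery that cuts histone messengers, were called higher in the PR. For RPE minus PR, Lsm11 was at -1.47 and the called Zfp473 probe at -2.12. Casp8ap2, a histone locus body protein, was called as well, at -1.35. Lsm10, on the same list, went the other way without a call, at 0.92 for RPE minus PR and 1.19 for CH minus PR. Of the 13 genes of the general poly(A) machinery, 2 were called lower in the RPE than in the PR (5.71% of all genes), Pcf11 at -1.36 and Clp1 at -1.42. Against the CH, 0 were called (4 higher and 3 lower at an unadjusted p below 0.05 in limma, read against the same 19.3% and 17.7%).

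Genes of DNA replication and division ran differently from the histones between CH and RPE. Over 36 such genes the median RPE minus CH difference was -0.12, with 0 called in either direction and, at an unadjusted p below 0.05 in limma, 4 higher and 16 lower (19.3% and 17.7% of all genes). In the CH, 11 of the 36 were called higher than in the PR and 3 were called lower (13.2% and 6.92% of all genes). In the RPE, 7 were called higher than in the PR and 3 lower (11.2% and 5.71% of all genes). Mcm6, of the replicative helicase, gave 1.06, 0.95 and 0.43 in CH, -0.34, -0.07 and -0.31 in RPE and -1.56, -1.76 and -1.75 in PR. It thus ran CH above RPE above PR, with RPE minus CH at -1.06 (adjusted p 0.00179). Rrm2, of the enzyme that makes deoxyribonucleotides, was at -1.07 (adjusted p 0.00326). For Mki67, a marker of dividing cells, the probe with signal well above background on 9 arrays gave -1.04 for RPE minus CH and 1.38 for CH minus PR. Its other probe was not well above background on any PR array. None of these 3 genes passed the FC limit between RPE and CH. Other genes of the list called against the PR ran otherwise. The called probe of Cdk1 gave 0.80 for RPE minus CH and 3.52 for RPE minus PR. Over the 3 Cdk1 probes these differences ranged from -0.29 to 0.80 and from 0.11 to 3.52. Ccna2 gave 0.03 for RPE minus CH and -2.88 for RPE minus PR.

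Replacement histones, which are made outside S phase from messengers with poly(A) tails, were measured for 12 genes. In the RPE, 3 of these were called higher and 1 was called lower than in the PR (11.2% and 5.71% of all genes). H1f0, a linker histone of resting cells, read 0.54, 0.48 and 0.78 in RPE and -0.88, -0.75 and -0.53 in PR, a difference of 1.32 that was called. H3f3b was called higher in the PR, with RPE minus PR of -0.80, -1.80 and -2.35 over its 3 probes. The other 2 genes called higher had probes of opposite sign in this comparison: H2afy at -0.59, -0.32 and 2.09, and H2afv at -0.77 and 1.43. Over the 21 histone chaperones the median RPE minus CH difference was 0.11 and over the 10 genes of cell cycle exit it was -0.27, with 0 called in either list. At an unadjusted p below 0.05 in limma, 5 chaperones were higher and 5 lower in RPE than in CH, and 1 exit gene was higher and 4 lower, where 19.3% of all genes were higher and 17.7% lower.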

How the data were processed

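The authors scanned 9 dual-colour arrays (3 each of CH, RPE and PR) and deposited the Feature Extraction 9.5.3.1 output, whose spot means and local background medians are unprocessed intensity values. The deposited log ratio of the software is a log10 value. The series table, which the authors also deposited, gives log2 Cy5 values from limma under R 2.14.0, after a normalization not given in the sources used here. Both served only as alternatives.

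Background was corrected with normexp (offset 50), log2(Cy5/Cy3) was normalized by loess within arrays, control spots got no weight, and the 228 to 586 outlier spots per array were left out. Repeated spots were averaged to 39429 probes. Tissue means were fitted to all 9 arrays with limma 3.58.1 in R 4.3.3, with B-H adjustment over all probes. A call needed an FC above 2.5 and an adjusted p below 0.01, and a gene was called when at least 1 probe was. A gene's value in medians is the median of its probes, and group values are mean ± SD or the fitted difference ± SE. The bound for a probe not well above background used log2 Cy5 after loess and Aquantile, which is open to dye bias as no dyes were swapped. The number of arrays limits the precision. On simulated arrays with independent noise, no slide effect and changes well past the FC limit, the fit called 193 of 200 changed probes and 0 unchanged ones. Changes near or below the limit, where many histone differences lie, were not simulated.

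Probe positions and sequences are those of the files (mm9), which give no exon or UTR for a probe. Current symbols and promoters came from RefSeq (GRCm38.p6). Tables and figures used Python 3.11.15, numpy 2.4.6, pandas 2.3.3 and matplotlib 3.10.9.

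The members, the 6 gene lists and the 9 marker lists were chosen with earlier results of these data known. Named were the histone genes called against the CH and the 5 largest calls per direction against the PR with no overlap. Also named were the probe with the highest signal per cluster and type and the 3 genes nearest the FC limit on each side. From the lists, Slbp, Npat and some of the called genes were named, and other called genes were not. Other histone genes and some list genes were added after their values were seen. The 10 summary results were recomputed under other background, scaling, reference, model, block, filter, probe and threshold choices and with each array left out.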

Additional observations from a re-analysis of the deposited data

How the results depend on the processing

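The count of 1 histone gene called higher in RPE than in CH rested on the FC limit. It was 0 with median centring, with the Feature Extraction log ratio, on Cy5 without the reference, in the series table and within the slide of CH and RPE replicates 1 and 3. It was 9 at an FC above 2 and 20 with no FC limit, and between 0 and 3 with an array left out. The count called against both neighbours was 0 with median centring, the Feature Extraction log ratio, Cy5 without the reference and the series table, 7 at an FC above 2, 15 with no FC limit, and between 0 and 2 with an array left out. For RPE above PR, the count of 11 was 19 with no FC limit and 10 to 11 with an array left out, and 9 genes were called in every fit with an array left out (not Hist1h4h and Hist2h2aa2). For RPE below PR, the count of 2 was 4 with median centring, 5 with the Feature Extraction log ratio, 4 with slide as a block, 5 at an FC above 2, 7 with no FC limit and 2 to 4 with an array left out. For CH above PR, the count of 6 was 3 with the Feature Extraction log ratio, on Cy5 without the reference, with slide as a block and in the series table, 11 with no FC limit and 3 to 8 with an array left out. For CH below PR, the count of 7 was 11 at an FC above 2, 12 with no FC limit and 7 to 10 with an array left out. The count of 0 called lower in RPE than in CH was 0 in every alternative run. With no FC limit, 5.78% of all genes were higher in RPE than in CH. Of all 31829 genes, 6883 were then higher and 6568 lower in RPE than in PR. In the CH, 7438 were higher and 7426 lower than in the PR. No all-gene share is given for counts at an FC above 2, or for both neighbours with no FC limit. Nothing is read from those counts.

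The median RPE minus CH difference of 0.71 was 0.53 with median centring, 0.58 on Cy5 without the reference, 0.56 within the slide of CH and RPE replicates 1 and 3, 0.83 over probes well above background on all arrays (an alternative added after the data were seen) and 0.61 to 0.71 with an array left out. The median RPE minus PR difference of 0.31 was 0.47 with dim probes left out, 0.64 over probes well above background on all arrays and 0.22 to 0.31 with an array left out. The median CH minus PR difference of -0.06 lay between -0.10 and 0.02 with an array left out, so its sign was not stable. The causes of these shifts were not tested.

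The replicate number as a block left the medians at 0.71, 0.31 and -0.06 and the counts at 1, 0, 11, 2, 6, 7 and 1. Correlations of deviations between equally numbered arrays ran from -0.08 to 0.29, so the numbers were not taken as pairs. Signal over background limits the 11 probes that were well above it on 5 arrays or fewer, where small differences cannot be read.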
